A study of Danio rerio with 6 samples.

Results

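The gene set described here covers the digestive enzymes of the exocrine pancreas, with their granule, inhibitor and transcription factor genes. It was drawn from 31 zebrafish symbols, matched without regard to case, and from symbol patterns for trypsins, chymotrypsins, elastases, carboxypeptidases, amylases and bile salt lipases. Together these gave 47 of the 32520 gene IDs in the count table, 23 through 22 of the listed symbols and 24 through the patterns alone. The 9 listed symbols without an ID under that name were try, ctrb1, cpa4, cpa5, cel.1, cel.2, pnlip, clps and sycn.2. RefSeq gives ctrb1 as a synonym of ctrb.1 and try as a synonym of prss1, and the bile salt lipase IDs entered through a pattern under the name CEL. By name, 37 IDs were digestive or acinar genes. The other 10 (PRSS12, prss23, the PRSS35 pair, prss59, prss60.1, prss60.2, prss60.3, CPA6 and CPB2) were proteases that the patterns took in and that are not established pancreatic enzymes, and they were kept apart.

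Poly-A RNA of whole zebrafish embryos at 72 hpf was sequenced in 6 libraries, 3 from wild-type embryos and 3 from miR-34a-/- embryos. Each library came from a pool of 30 embryos, and both genotypes were in casper, a background with little pigment. The mutants lack the miR-34a gene, removed with CRISPR/Cas9, and were kept as a homozygous line of their own, so the wild-type embryos were not their siblings and line and deletion cannot be told apart. The loss of the mature miRNA itself was not checked in these poly-A libraries.

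The acinar cells of the pancreas make digestive enzymes, pack most of them as inactive precursors into zymogen granules and release them into the gut. Trypsin, once cut by the intestinal enzyme enteropeptidase, activates the other precursors. In zebrafish embryos, acinar cells depend on the transcription factor gene ptf1a and begin to make enzymes before the larva feeds.

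Libraries held between 10273343 and 16369150 counts, and 3 counts, taken as the limit of a count of 0, corresponded to 0.186 to 0.293 CPM (counts over the scaled library size, on the usual scale). The 19240 genes with enough counts were compared between genotypes by edgeR's quasi-likelihood test, and a gene was called at an adjusted p under 0.05 with a fold change over 1.5. Of all genes tested, 362 (1.88%) were called, 178 higher (0.925%) and 184 lower (0.956%) in the mutant. The library of miR-34a-/- replicate 1 stood apart: leaving it out raised the calls to 1504 of 19434 genes (7.74%). Named genes of this set and of the other lists whose call changes without it are given both ways. The chi-square per degree of freedom between replicate libraries was 1.78 to 13.4, so no pair was a repeat of the same library. The sources used here do not say that the pools came from separate clutches, so p-values measure the spread between these pools.

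Counts of the digestive and acinar genes were low in every library. The 37 digestive and acinar genes together took 0.00752 ± 0.00145% of the counts in wild-type against 0.00784 ± 0.00227% in mutant libraries (mean ± SD, n = 3 each), a difference smaller than either spread. With the 10 other proteases the shares were 0.0240 ± 0.0023% and 0.0240 ± 0.0030%. Of the 47 IDs, 22 had enough counts to be tested, 15 of them digestive or acinar genes. The low-count filter asked for about 10 counts at the median library size (0.928 CPM) in at least 3 libraries. The 25 untested IDs had at most 11 counts in any library, and 5 of them (PLA2G1B, sycn.1, cela1.2, cela1.3 and cela1.5) had no count in any.

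**Figure D1:**
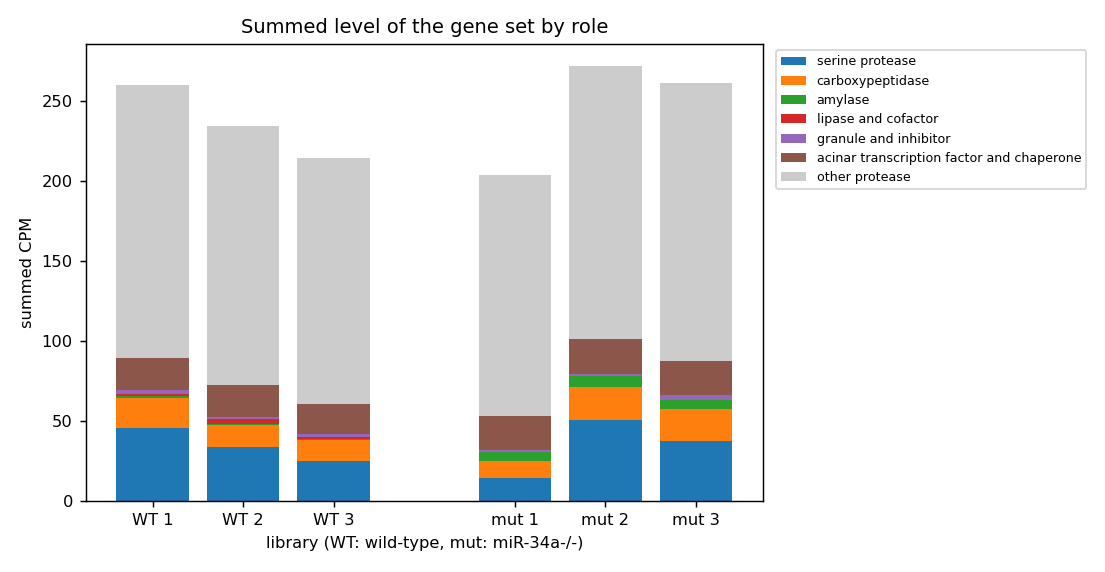
Summed CPM in each library of the 47 genes except the 2 astacin protease genes c6ast3 and c6ast4, stacked by role (linear axis from 0, WT wild-type, mut miR-34a-/-, each a pool of 30 embryos). The amylase segment is visible in the 3 mutant libraries, the lipase segment in the 3 wild-type libraries, and the serine protease segment is smallest in miR-34a-/- replicate 1.

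Of the tested members, 2 were called: the amylase gene amy2al1 was higher in the mutant and the bile salt lipase gene CEL (ENSDARG00000017490) was lower. That is 1 of 22 in each direction, beside 0.925% and 0.956% of all genes, and with 22 members these shares are too coarse to set the list apart. An adjusted p under 0.05 alone was reached by 3 of 22 members against 2.6% of all genes, and 4 of 22 did not overlap between genotypes against 21.2% of all genes. The median log2 fold change was 0.01 over the tested members and -0.01 over all genes. Over the 15 tested digestive and acinar genes alone the median was 0.23, with 2 called, 9 values above 0 and 6 below. Over the 7 other tested proteases it was -0.08. Both called genes passed the filter through a single genotype, amy2al1 through the mutant libraries and CEL through the wild-type libraries, so these counts and medians are descriptions and do not support a change of the set.

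Pancreatic amylase cuts starch, and unlike the proteases it is made in its active form. In wild-type libraries amy2al1 (ENSDARG00000030357) stood at 0.62, 0.66 and 0.57 CPM, which are 10, 7 and 6 counts. In miR-34a-/- libraries it stood at 5.25, 6.75 and 5.09 CPM, or 59, 69 and 79 counts. The genotypes lay far apart, with little spread inside either. The log2 fold change was 3.18 ± 0.26 (SE; edgeR adjusted p = 0.000198), and the ratio of summed counts, each over its scaled library size, was 9.06 with a 95% interval of 5.88 to 14.6 that covers counting error only. The call held in all 13 alternatives in which the gene was tested, with log2 fold changes from 3.05 to 3.25 and adjusted p-values up to 0.00529.

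The other amylase copies, amy2a and amy2al2, were close to the detection limit and not tested. The amy2a gene had 0, 2 and 1 counts in wild-type against 1, 3 and 3 in mutant libraries, and amy2al2 had 1, 0 and 2 against 2, 1 and 5. Mutant over wild-type ratios were 2.35 (0.54 to 14.1) for amy2a and 2.68 (0.64 to 15.7) for amy2al2, with intervals that include no change. Amylase copies are similar in sequence, and how reads matching several of them were counted is not stated, so the sum over the copies is less exposed to this than any single ID. Summed over the 3 IDs, amylase went from 0.80 ± 0.10 to 6.09 ± 0.91 CPM (log2 fold change 2.94 ± 0.25, edgeR adjusted p = 0.000263).

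**Figure D2:**
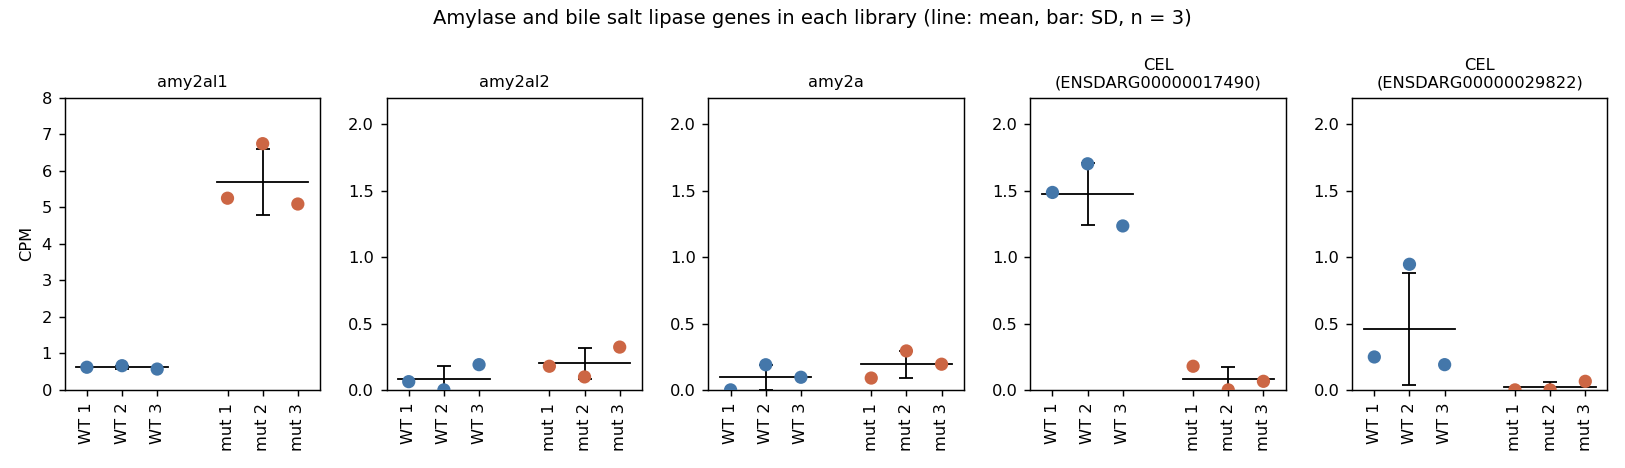
CPM of the 3 amylase and 2 bile salt lipase IDs in each library (points; horizontal line mean, vertical bar SD, n = 3; the vertical scale of amy2al1 is wider than that of the other panels). The mutant libraries of amy2al1 sit between 5.09 and 6.75 CPM and the wild-type libraries below 1, whereas both CEL IDs are near 0 in all mutant libraries.

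Carboxyl ester lipase, or bile salt-activated lipase, splits cholesteryl esters and other lipid esters in the gut in the presence of bile salts. CEL (ENSDARG00000017490) was at 1.49, 1.70 and 1.24 CPM in wild-type libraries, from 24, 18 and 13 counts. Only 2, 0 and 1 counts were found in the miR-34a-/- libraries, that is 0.18, 0 and 0.06 CPM. Every mutant library was thus at or under the limit of 3 counts while every wild-type library was above it. The fitted log2 fold change was -4.03 ± 0.57 (SE; edgeR adjusted p = 0.00487), a value that depends on the prior count, and the count ratio of wild-type over mutant was 18.2 with a counting interval of 5.91 to 91.0. The gene was called in all 13 alternatives in which it was tested, with adjusted p-values up to 0.041.

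The second lipase ID, CEL (ENSDARG00000029822), was too low to test, with 4, 10 and 2 counts in wild-type against 0, 0 and 1 in mutant libraries. Its wild-type over mutant count ratio was 15.9 (2.47 to 666), an interval above 1. Over both IDs, 71 counts in wild-type stood against 4 in the mutant, a ratio of 17.6 (6.59 to 66.5), and the summed row fell by 4.03 on the log2 scale (SE 0.57, edgeR adjusted p = 0.00475). The copies therefore pointed the same way, although reads that match both cannot be assigned to either. The third gene of this role, PLA2G1B, which encodes pancreatic phospholipase A2, had no count in any library.

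Serine proteases make up the largest role, with 17 IDs, of which 6 were tested and none was called. Trypsin, the activator of the other zymogens, is encoded by prss1. It was at 19.2, 15.7 and 12.6 CPM in wild-type libraries and 6.94, 23.2 and 16.1 CPM in miR-34a-/- libraries. The mutant libraries enclosed the wild-type range on both sides, and the genotypes differed by -0.06 ± 0.33 on the log2 scale (edgeR adjusted p = 0.954). The trypsin-like gene prss59.2 was at 13.1, 7.95 and 4.56 CPM in wild-type against 2.14, 10.6 and 7.09 CPM in the mutant (-0.41 ± 0.48, adjusted p = 0.728). The similarly named prss59.1 had 10, 4 and 6 counts against 0, 6 and 8, and the sum of both copies gave a log2 fold change of -0.41 ± 0.47 (adjusted p = 0.723).

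Elastases cut proteins behind small side chains and are represented by 10 IDs. The elastase gene CELA1 (ENSDARG00000017314) was at 4.71, 4.16 and 2.28 CPM in wild-type libraries and at 1.96, 7.63 and 5.93 CPM in miR-34a-/- libraries. The lowest and the highest library were both mutant. The log2 fold change was 0.45 ± 0.42 (edgeR adjusted p = 0.651), and without miR-34a-/- replicate 1 it was 0.81 ± 0.25 (adjusted p = 0.0338), which passes the call. Summed over all elastase IDs, the values were 0.44 ± 0.42 (adjusted p = 0.655) with all libraries and 0.80 (adjusted p = 0.0255) without that library. The ela3l gene reached 101 counts over the 6 libraries and was not called (0.23 ± 0.46, adjusted p = 0.858). The ela2 gene had 10 counts and ela2l 1 count over all libraries.

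Chymotrypsins cut behind aromatic residues. The tested chymotrypsin genes ctrb.1 and ctrl differed by -0.28 ± 0.34 and 0.66 ± 0.41 on the log2 scale (edgeR adjusted p = 0.741 and 0.479), so neither passed the test. Their neighbours in name, ctrb.2 and ctrb.3, were not tested, with 9 and 36 counts over the 6 libraries.

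Carboxypeptidases remove single residues from the end of the peptides that the serine proteases leave. CPB1, which takes off basic residues, was at 7.87, 5.49 and 5.70 CPM in wild-type libraries and 4.27, 9.78 and 8.77 CPM in miR-34a-/- libraries (log2 fold change 0.24 ± 0.28, edgeR adjusted p = 0.725). CPA1 (ENSDARG00000021339), which prefers aromatic and aliphatic residues, was at 6.82, 4.73 and 3.99 CPM against 5.34, 8.02 and 8.12 CPM (0.45 ± 0.24, adjusted p = 0.413). In both genes the genotypes overlapped.

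Of the granule and inhibitor genes, only spink4, a gene of the Kazal-type protease inhibitor family, was tested. It was at 2.05, 1.51 and 1.52 CPM in wild-type and at 1.25, 1.56 and 3.03 CPM in miR-34a-/- libraries (log2 fold change 0.23 ± 0.36, edgeR adjusted p = 0.805). The genotypes overlapped, and the mutant mean was raised by replicate 3. The syncollin gene sycn.1, which encodes a zymogen granule protein, had no count in any library. The astacin-type metalloprotease genes c6ast3 and c6ast4 had 1 count each, both in wild-type libraries, too few to compare the genotypes.

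Of the transcription factors that set up and maintain acinar identity, PTF1A and NR5A2 were tested and neither was called in either direction. PTF1A, the founding factor of the lineage, was at 2.23, 1.70 and 1.05 CPM in wild-type libraries and at 1.87, 1.37 and 2.00 CPM in miR-34a-/- libraries (log2 fold change 0.05 ± 0.32, edgeR adjusted p = 0.959). NR5A2, a nuclear receptor of acinar cells that liver and intestine also use, was at 11.4, 13.0 and 13.9 CPM against 14.9, 11.5 and 11.1 CPM (-0.03 ± 0.15, adjusted p = 0.951). In both genes the range of one genotype lay inside that of the other. RBPJL, the partner of PTF1A in mature acinar cells, had 1, 4 and 1 counts against 1, 4 and 3. BHLHA15, also known as Mist1 and a regulator of the secretory apparatus, had 9, 4 and 1 against 1, 5 and 2. Both RBPJL and BHLHA15 were too low to test.

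The gene pdia2 encodes a protein disulfide isomerase that helps fold secreted pancreatic proteins. It was at 5.77, 4.45 and 3.71 CPM in wild-type libraries and at 4.01, 7.82 and 8.25 CPM in miR-34a-/- libraries. Mutant replicates 2 and 3 thus lay above all wild-type libraries, and replicate 1 lay inside their range. With all libraries the log2 fold change was 0.52 ± 0.28 (edgeR adjusted p = 0.416), and without miR-34a-/- replicate 1 it was 0.77 ± 0.20 (adjusted p = 0.015), which passes the call.

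**Figure D3:**
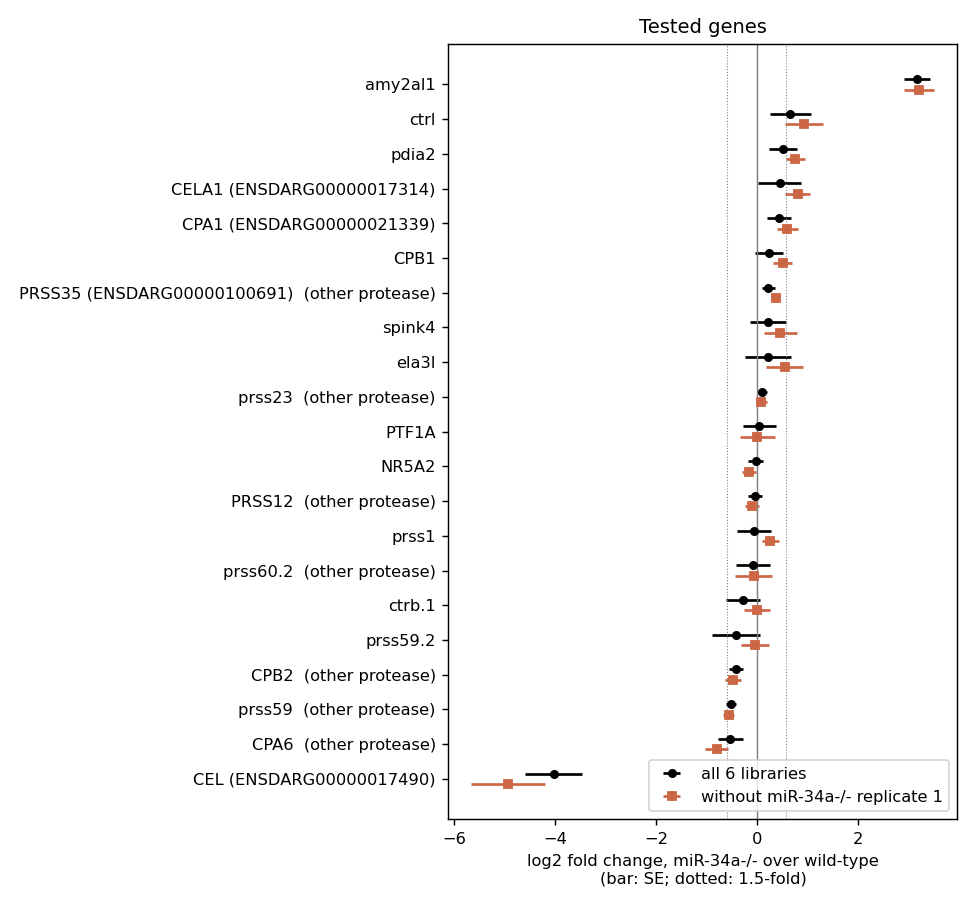
Log2 fold change of miR-34a-/- over wild-type for 21 tested genes (bars SE, dotted lines at 1.5-fold), with all 6 libraries (circles) and without miR-34a-/- replicate 1 (squares). The amy2al1 and CEL values (3.18 and -4.03 with all libraries) lie apart from the other 19 genes, which run from -0.52 to 0.66.

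Without miR-34a-/- replicate 1, 5 of 22 members were called, beside 7.74% of all genes. The 3 gained were pdia2 and CELA1, both higher, and CPA6, lower. In that fit 4 of the 15 tested digestive and acinar genes were called. Their median log2 fold change was 0.47, against 0.23 with all libraries and -0.01 over all genes in that fit. The pancreatic proteases, whose genotype means were close, differed between pools of the same genotype. Over the 9 tested serine proteases and carboxypeptidases of the pancreas, the summed level was 62.2, 45.3 and 35.4 CPM in wild-type libraries and 24.3, 68.4 and 54.7 CPM in miR-34a-/- libraries. The mean was 47.7 ± 13.5 CPM in wild-type and 49.1 ± 22.6 CPM in the mutant. Replicates 2 and 3 of the mutant were 2.82 and 2.25 times replicate 1, and replicate 1 of the wild-type was 1.75 times replicate 3.

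The order of the pools was similar for many of these genes. Wild-type replicate 1 was the highest wild-type library for 9 of 9 proteases (36.7% of all tested genes), and wild-type replicate 3 the lowest for 7 of 9 (33.3%). The library of miR-34a-/- replicate 1 was the lowest mutant library for 9 of 9 (39.9%) and the lowest of all 6 for 6 of 9 (21.1%). Mutant replicate 2 was the highest of all for 5 of 9 (14.0%). The median range within a genotype was 0.76 on the log2 scale for the proteases in wild-type and 0.36 for the 9573 tested genes of the same expression range, of which 10.8% had a range as wide as the protease median. In miR-34a-/- libraries the medians were 1.42 and 0.49, and the share as wide as the protease median was 5.07%. The genes share their libraries, so this is a description of 6 pools and not of 9 independent observations. Some lists described below had the same order in their sums (wild-type replicate 1 highest and 3 lowest, miR-34a-/- replicate 1 lowest mutant). Endocrine pancreas genes summed to 277, 269 and 263 CPM in wild-type against 226, 269 and 277 CPM in mutant libraries. Enterocyte genes summed to 868, 820 and 794 against 636, 704 and 731 CPM. The sum of other acinar genes had it too, and the stimulation, endoplasmic reticulum, hepatocyte and hatching gland sums did not have all of it. In each sum with this order 1 gene held the largest part. In the endocrine sum it was NEUROD1 (188, 184 and 177 against 147, 188 and 190 CPM). It was apoa4b.1 in the enterocyte sum (627, 594 and 588 against 475, 506 and 521 CPM) and GATM in the other acinar sum. The endocrine gene ins was at 11.0, 12.0 and 10.8 against 10.2, 9.49 and 12.4 CPM, without this order. The order of a sum therefore need not hold for the other genes of its list.

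**Figure D4:**
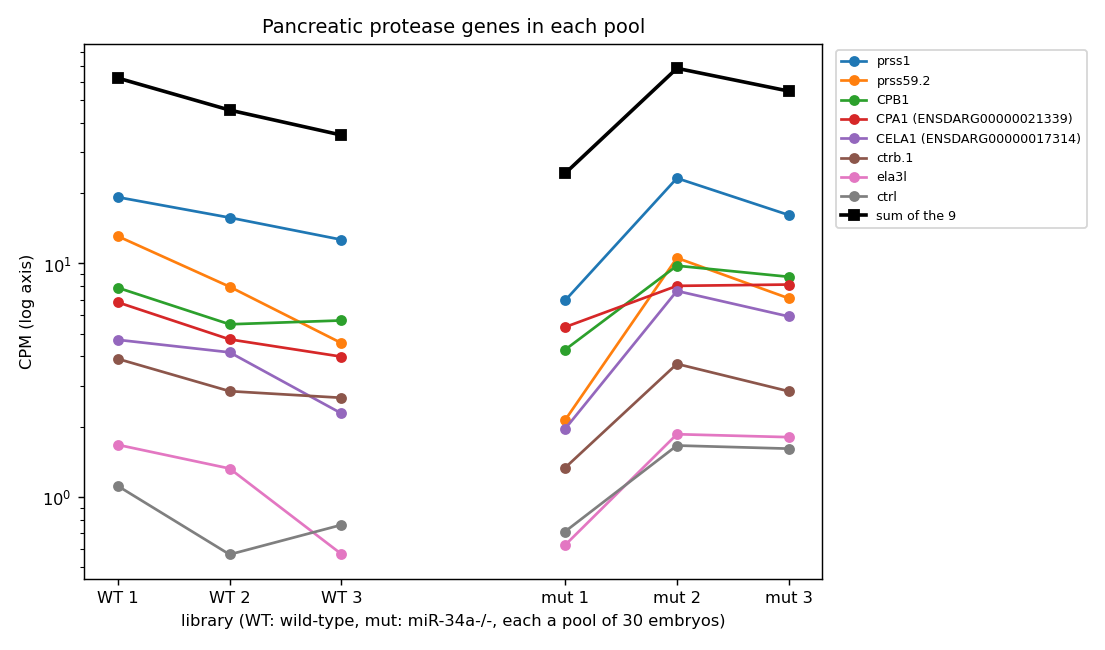
CPM (log axis) of 8 tested pancreatic protease genes and the sum over all 9 tested (black squares) in each library; lines join the values of one gene within a genotype and carry no order, since replicates have none. The sum is lowest in miR-34a-/- replicate 1 (24.3 CPM) and highest in miR-34a-/- replicate 2 (68.4 CPM), and replicate 1 is the lowest mutant library for each gene shown.

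The pool-to-pool differences exceeded counting error. As a share of counts, the 37 digestive and acinar genes took 0.00537% in miR-34a-/- replicate 1 (95% Wilson interval 0.00496 to 0.00582) and 0.00984% in miR-34a-/- replicate 2 (0.00926 to 0.0105). The other roles differed in how far they shared this order. The other proteases summed to 171, 162 and 154 CPM in wild-type and 151, 171 and 174 CPM in mutant libraries, also lowest in miR-34a-/- replicate 1 though over a narrower range. The transcription factor and chaperone genes summed to 20.9, 21.6 and 21.7 CPM in the mutant libraries, a flat total in which pdia2 was lowest and NR5A2 highest in replicate 1. The amy2al1 value of miR-34a-/- replicate 1 was between the other mutant values. In RNA of whole embryos, fewer acinar cells and less transcript per cell cannot be told apart.

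The 2 genes of other tissues given next were named after their values were seen. The rod opsin gene rho (ENSDARG00000002193) was at 291, 180 and 111 CPM in wild-type libraries and 86.2, 360 and 361 CPM in miR-34a-/- libraries. The liver fatty acid binding protein gene fabp10a was at 12.8, 11.4 and 8.55 CPM against 10.9, 20.4 and 21.9 CPM (log2 fold change 0.69 ± 0.25, edgeR adjusted p = 0.212, and 0.94 with adjusted p = 0.000305 without miR-34a-/- replicate 1). Like the proteases, both were lower in miR-34a-/- replicate 1 than in the other mutant pools, and among the wild-type pools both were highest in replicate 1 and lowest in replicate 3. The hepatocyte list as a whole did not share the direction of fabp10a: without miR-34a-/- replicate 1, 12 of its 18 tested genes had a log2 fold change below 0 (median -0.04). In that fit 3 of the 18 were called, beside 7.74% of all genes, 2 higher (fabp10a among them) and 1 lower. The part of developmental timing or of any other difference between pools in the protease values was not tested.

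None of the 7 tested proteases outside the pancreatic roles was called. PRSS35 (ENSDARG00000100691), a protease-like gene, was at 88.9, 76.1 and 70.8 CPM in wild-type libraries and 72.7, 103 and 102 CPM in miR-34a-/- libraries (log2 fold change 0.23 ± 0.13, edgeR adjusted p = 0.452). Without miR-34a-/- replicate 1 its log2 fold change was 0.37 ± 0.09 (adjusted p = 0.00721), which did not reach 1.5-fold. The secreted protease gene prss23 was at 21.0, 24.2 and 24.1 CPM against 25.6, 23.4 and 25.2 CPM (0.10 ± 0.10, adjusted p = 0.654). CPA6, a carboxypeptidase of the extracellular matrix in mammals, was at 5.64, 8.05 and 5.89 CPM against 6.23, 3.32 and 4.00 CPM. Its log2 fold change was -0.52 ± 0.25 (adjusted p = 0.358) and, without miR-34a-/- replicate 1, -0.80 ± 0.22 (adjusted p = 0.0224).

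The 4 members that did not overlap between genotypes were amy2al1, CEL (ENSDARG00000017490), prss59 and CPB2, the last 2 being named after their values were seen. The prss59 gene was at 23.8, 25.0 and 23.7 CPM in wild-type and 17.9, 16.6 and 16.3 CPM in miR-34a-/- libraries. Its log2 fold change of -0.51 ± 0.09 reached an adjusted p of 0.0206 (edgeR) but not the 1.5-fold limit. Leaving out any single library other than miR-34a-/- replicate 1 gave adjusted p-values from 0.0546 to 0.125. CPB2, which in mammals is a liver-derived inhibitor of clot breakdown, differed by -0.42 ± 0.14 (adjusted p = 0.186). Without miR-34a-/- replicate 1 the difference was -0.47 ± 0.15 (adjusted p = 0.0479), which did not reach 1.5-fold.

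Genes that work around the digestive enzymes showed few calls. In a list of 25 other acinar genes, 15 were tested and 1 was called, beside 1.88% of all genes, with a median log2 fold change of 0.05. An unadjusted edgeR p under 0.05 was reached by 4 of the 15, beside 2952 of 19240 over all genes. The called gene, aqp12, encodes a water channel found in acinar cells of mammals. It was at 19.3, 15.9 and 13.9 CPM in wild-type libraries and 21.7, 33.7 and 37.5 CPM in miR-34a-/- libraries. All mutant libraries lay above the wild-type range, and replicate 1 was the closest to it. The log2 fold change was 0.91 ± 0.20 (edgeR adjusted p = 0.0401). The call held in 6 of 14 alternatives, whose adjusted p-values ran from 9.9e-06 without miR-34a-/- replicate 1 to 0.990, and was lost on leaving out any other library (adjusted p from 0.0842 to 0.193). The most abundant gene of the list, GATM, which makes the creatine precursor, went from 819 ± 24 to 924 ± 41 CPM and was not called (adjusted p = 0.245). Without miR-34a-/- replicate 1 its adjusted p was 0.0423, again without a call.

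Of 19 symbols for hormones, receptors and signalling steps that stimulate secretion and for zymogen activation, 12 were found and 9 were tested. None was called, and 1 had an unadjusted edgeR p under 0.05, beside 2952 of 19240 over all genes tested. The median log2 fold change was 0.03. Enteropeptidase (tmprss15), the intestinal activator of trypsinogen, had 16, 12 and 5 counts in wild-type against 3, 4 and 4 in mutant libraries and was not tested. The most abundant gene, the calcium release channel ITPR3, was at 34.2 ± 2.1 and 30.9 ± 3.0 CPM (edgeR adjusted p = 0.485). Among 29 IDs for translocation into and folding in the endoplasmic reticulum, all tested, none was called and the median was 0.02. An unadjusted edgeR p under 0.05 was reached by 5 of these 29, beside the same 2952 of 19240 over all genes. An adjusted p under 0.05 was reached by 2 of the 29 without a 1.5-fold change, beside 2.6% of all genes at that adjusted p. HSPA5, the main chaperone there, went from 496 ± 31 to 577 ± 9 CPM (adjusted p = 0.162). Without miR-34a-/- replicate 1 its adjusted p was 0.0432, again without a call.

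Markers of neighbouring organs are given because they share the pools. None of 11 tested endocrine pancreas genes was called, with a median of -0.07 and ins at 11.3 ± 0.6 and 10.7 ± 1.5 CPM. An unadjusted edgeR p under 0.05 was reached by 1 of the 11, beside 2952 of 19240 over all genes. NEUROD1, which neurons use as well, was the most abundant gene of that list (183 ± 6 and 175 ± 24 CPM). Of 11 tested enterocyte genes 1 was called, beside 1.88% of all genes, and a list this short is too coarse for comparing shares. An unadjusted edgeR p under 0.05 was reached by 2 of these 11. The called gene FABP2, an intestinal fatty acid binding protein, fell from 94.3 ± 7.6 to 58.1 ± 9.6 CPM (log2 fold change -0.70 ± 0.12, edgeR adjusted p = 0.0126, called in 10 of 14 alternatives). The call was lost without wild-type replicate 1 or 2 (adjusted p = 0.0818 and 0.0868), and without miR-34a-/- replicate 1 the log2 fold change of -0.57 no longer reached 1.5-fold. The summed enterocyte level was 794 to 868 CPM in wild-type against 636 to 731 CPM in mutant libraries. Its most abundant gene, apoa4b.1, was not called (adjusted p = 0.0764, and 0.0261 without miR-34a-/- replicate 1, again without a call).

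Of 18 tested hepatocyte genes 1 was called, beside 1.88% of all genes, again too coarse for comparing shares. An adjusted p under 0.05 alone was reached by 3 of the 18, beside 2.6% of all genes. An unadjusted edgeR p under 0.05 was reached by 7, beside 2952 of 19240 over all genes. The median log2 fold change was -0.14, with 12 values below 0 and 6 above. The called gene was ahsg1, a fetuin gene at 2.67 ± 0.72 and 0.74 ± 0.23 CPM (log2 fold change -1.88 ± 0.34, edgeR adjusted p = 0.0185, called in 8 of 13 alternatives). The call was lost on leaving out any wild-type library or miR-34a-/- replicate 3 (adjusted p from 0.0574 to 0.102). The most abundant, the apolipoprotein gene apoa2, was at 3452 ± 166 and 3648 ± 442 CPM. None of 6 tested hatching gland genes was called, and 2 of the 6 had an unadjusted edgeR p under 0.05. The hatching enzyme gene he1.1, the most abundant of them, was at 40.8, 70.0 and 64.8 CPM in wild-type and 23.9, 37.6 and 39.1 CPM in miR-34a-/- libraries (-0.79 ± 0.22, adjusted p = 0.105). The gene was called in 4 of 14 alternatives, among them the replicate block (edgeR adjusted p = 0.0052) and leaving out miR-34a-/- replicate 1 (0.018). All marker lists had counts in every library, with only cpn1 (ENSDARG00000096728) of the hepatocyte list at 0 throughout, and the part of these tissues in the values of the enzyme genes was not tested.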

How the data were processed

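Poly-A RNA libraries of 6 embryo pools were compared, 3 per genotype. The authors deposited raw counts per Ensembl gene, and per the submitters' processing notes the tools were Trim Galore 0.4.4 and STAR 2.7.8 with the danRer11 build (GRCz11). Counting mode, use of strand, treatment of reads with several matches and annotation release are not given in the sources used here, so single IDs of similar copies are uncertain.

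Software for the work on the deposited counts was edgeR 4.0.16, DESeq2 1.42.0 and limma 3.58.1 under R 4.3.3. Genes were filtered with filterByExpr, libraries scaled by TMM, and genotype tested two-sided with the edgeR quasi-likelihood test and Benjamini-Hochberg adjustment over all genes. CPM are counts over the TMM-scaled library size. Log2 CPM used a prior count of 1. Similar copies were also summed before the fit. A symbol was found for 29201 of 32520 IDs. Shares have 95% Wilson intervals, and count ratios exact binomial intervals, for counting error only. The fit was tested on simulated counts.

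Members and lists were chosen with earlier results of these data known, and the roles of IDs added by pattern were set from their names. Named members were those called, the 2 most abundant of each role by mean CPM, every transcription factor, and those whose call moved without 1 library. Named genes of other lists were those called and the most abundant. Genes outside the rule are given where a role or family is described. 1 tested member is counted in the totals but not reported here on its own. Alternatives were other scaling (DESeq2 size factors, TMM without the members), no filter or a mean count of at least 50, the DESeq2 Wald and edgeR likelihood ratio tests, glmTreat, a replicate block and leaving out each library.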

Additional observations from a re-analysis of the deposited data

How the results depend on the processing

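The amy2al1 and CEL calls held under every alternative in which these genes were tested. With a mean count of at least 50, neither was tested and 0 members were called (0 higher, 0 lower). Leaving out a library in turn gave 2 to 5 members called, 1 to 3 higher and 1 to 2 lower. Over all genes, calls were 217 (104 higher, 113 lower) with that filter, 627 (316 and 311) with the likelihood ratio test, 122 (61 and 61) with glmTreat and 180 to 1504 (89 to 559 higher, 89 to 945 lower) with a library left out. The causes were not tested.

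Small differences changed sign when 1 library was left out, in each case without passing the test. Over the 6 libraries left out in turn, the log2 fold change ran from -0.87 to 0.045 for the sum of prss59.1 and prss59.2. The prss59 gene is not part of this sum and ran from -0.55 to -0.48 over its 14 alternatives. For prss59.2 alone the log2 fold change ran from -0.87 to 0.071, like the sum positive only without wild-type replicate 1. For prss1 it ran from -0.44 to 0.27 (0.12 without wild-type replicate 1 and 0.27 without miR-34a-/- replicate 1). It ran from -0.17 to 0.36 for PTF1A (-0.17 and -0.074 without replicate 3 of wild-type and of miR-34a-/-), from -0.30 to 0.47 for spink4 (negative without miR-34a-/- replicate 3) and from -0.16 to 0.062 for NR5A2 (0.038, 0.024 and 0.062 without wild-type replicate 3, miR-34a-/- replicate 2 and miR-34a-/- replicate 3). The elastase sum ran from 0.13 to 0.80 and passed the call only without miR-34a-/- replicate 1. With the listed symbols alone, the set's share was 0.00619% for wild-type and 0.00679% for miR-34a-/-.

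Leaving out a library in turn gave 0 to 2 called other acinar genes, 0 to 1 stimulation genes, 0 to 1 endocrine genes, 0 to 1 enterocyte genes, 0 to 3 hepatocyte genes and 0 to 3 hatching gland genes. No pairing by replicate number was seen in the values: deviations of same-numbered libraries correlated at -0.07, 0.00 and -0.18. Whether same-numbered pools share an origin is not stated in the sources used here. With the replicate block, 2 members were called as before, all genes called were 216 (104 higher, 112 lower), other acinar genes 0 and hatching gland genes 1. The sycn and c6ast families had too few counts for a fit and trypsin held a single ID. The 25 untested members had at most 11 counts in any library, and the cause of these low counts was not tested.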

Other observations

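The tested genes on either side of amy2al1, of amy2al2 and of the bile salt lipase gene were read from the gene order of RefSeq. Its assembly (GRCz12tu) differs from the one the counts were made on, so only names and order were used. Among the 3 nearest tested genes on each side of amy2al1, egr2a, which encodes a zinc finger transcription factor, was higher in miR-34a-/- embryos, at 2.05 against 0.61 CPM (log2 fold change 1.76 ± 0.38, edgeR adjusted p = 0.0419). It lies 5 genes away on one side. Its wild-type mean is under the 0.928 CPM of the low-count filter, and how its call depends on single libraries is not given here. On the other side, KTN1, 2 genes away, was at 158 and 155 CPM (-0.03 ± 0.06, adjusted p = 0.862), and none of the remaining 4 genes was called. Over all genes 1.88% were called, and 6 neighbours are too few to compare with that share. None of the 6 tested neighbours of amy2al2 was called, with the lowest adjusted p at QPCT (0.73 ± 0.19, adjusted p = 0.0871). For the lipase, the order around the RefSeq gene cel.1 was used, and which CEL ID corresponds to cel.1 is not shown here. None of the 6 tested neighbours of cel.1 was called. The closest, zgc:92275, was at 2.36 and 2.79 CPM (0.25 ± 0.29, adjusted p = 0.719), and GTF3C5 was at 11.2 and 10.7 CPM (-0.05 ± 0.17, adjusted p = 0.924).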
